A study of Homo sapiens with 4 samples.

Results

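m6A-seq was used to describe how strongly each mRNA of irradiated control HEK293T cells was recovered by an antibody against N6-methyladenosine (m6A). HEK293T cells are an established line from human embryonic kidney and express the large T antigen of SV40. The m6A-immunoprecipitated (m6A-IP) library of the control shRNA cells (shCTL) was compared with the input library of the same cells, which is the fragmented polyA+ RNA before the pull-down. Both libraries came from X-ray-treated cells. The second pair of libraries in the series came from X-ray-treated cells with an shRNA against the m6A demethylase ALKBH5 (shA5). That pair served as a repeat of the same ratio in another cell population, and its input also as a measure of gene level. No unirradiated cells were analysed here, so nothing below is a response to X-rays. Counts were summed per gene symbol and scaled by each library's total as counts per 1000000 (CPM). Genes with at least 100 counts over the shCTL pair were kept, which left 5736 of the 14911 genes listed in any of the 4 libraries. These genes held 95.5% of the input counts and 96.8% of the m6A-IP counts.

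Each group had 1 library, so no p-value was computed and no value has a replicate check. The measure throughout is the log2 ratio of IP CPM to input CPM, with 0.5 CPM added on each side. For a single gene the exact 95% Clopper-Pearson interval given its total count follows the value, and medians over genes with 95% order-statistic intervals. The intervals of single genes cover counting error only. The shCTL input held 2237819 counts and the shCTL m6A-IP 3944402, so 3 counts corresponded to 1.34 and 0.761 CPM. The shA5 pair was shallower, with 1311390 and 3148119 counts. Of the markers of the HEK293 line, NES had 431, LHX1 117 and KRT8 48 input counts, whereas KRT18 had 11, VIM 4, NEFM 3 and PAX2 0. UMOD, AQP2 and SLC12A1 of mature kidney, CDH1 of other epithelia and ALB of liver were not listed, and LRP2 of kidney had 91 input counts. Of the fibroblast markers COL1A1 had 401 and COL3A1 9, and COL1A2 and DCN were not listed.

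m6A is placed on nascent mRNA by a nuclear writer complex built around METTL3 and METTL14, removed by the demethylases ALKBH5 and FTO, and read by YTH-domain and IGF2BP proteins. The writer acts at the sequence RRACH, where R is A or G and H is A, C or T, and GGACT is a common form of it. Methylated sites are known to lie mainly in long internal exons, near stop codons and in 3′ UTRs, and exon junction complexes are known to keep the writer away from sequence close to splice junctions. Ribosomal protein mRNAs and replication-dependent histone mRNAs are textbook examples of short messages with little m6A. Because the counts cover whole transcripts, a ratio here reports the recovery of a whole mRNA and not the position of a site.

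Some of the most abundant mRNAs of human cell lines had almost no counts. GAPDH, with 6 protein-coding transcripts in Gencode v44, had 78 input counts, PKM with 13 had 31, VIM with 4 had 4 and LDHA with 10 had 2. EEF2, with 2 such transcripts, had 51262 and NCL, with 11, had 12431, so the number of transcripts did not order these genes, whereas over all genes counts were lower where it was high. The share of genes that reached 100 counts was 55.04% among the 2511 genes with 1 protein-coding transcript in Gencode v44, and it was lower with each further class, down to 29.4% among the 2070 genes with 9 or more. The median input count was 53 in the first class and 17 in the last. The rule for reads that match several transcripts of a gene is not given in the sources used here. The log2 ratio moved with the same property, from a median of 0.18 over the 1382 kept genes with 1 protein-coding transcript to -0.33 over the 609 with 9 or more. The part of the counting in this was not tested. Exon number, junctions per kb, length, GC content, the share far from junctions, snoRNA hosts and the families with enough members are therefore also given within the 1382 genes with 1 such transcript, a comparison that was chosen after seeing the data.

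Over the 5736 genes the median log2 ratio was -0.13 (-0.17 to -0.11), the quartiles were -0.76 and 0.50, and the standard deviation across genes was 0.88. A ratio of at least 2-fold was reached by 562 genes (9.8%), and 1027 genes (17.9%) were at or below the reciprocal. The whole counting interval was past 2-fold for 220 and 543 of them. The 562 genes took 7.94% of the input counts and 19.2% of the m6A-IP counts, whereas the 1027 genes took 16.3% and 6.09%. These splits depend on the scaling, since library totals assume that both libraries hold the same amount of RNA. With edgeR TMM factors the median shifted by 0.29 to 0.15, with 999 genes at least 2-fold higher and 616 at least 2-fold lower, and with DESeq2 size factors it shifted by 0.33 to 0.19, with 1081 and 567. Families and features are given as medians of the unadjusted log2 ratio and are to be read against the median of all genes, since a scaling moves both by the same amount. The count threshold lay in the sparse end of the data. The 248 genes with 100 to 110 counts had a median of -0.40, and the 257 genes just outside, with 90 to 99 counts, had a median of -0.49.

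**Figure D1:**
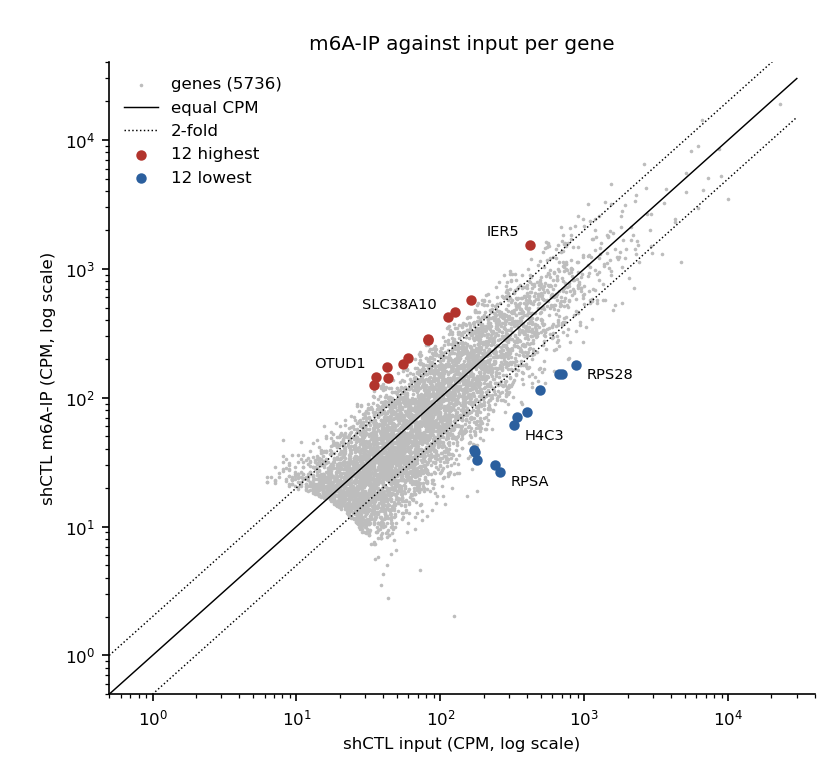
CPM of each of the 5736 genes in the shCTL input (horizontal, log scale) and the shCTL m6A-IP (vertical, log scale), with the line of equal CPM, the lines of 2-fold difference and the 12 highest and 12 lowest genes with at least 500 counts in colour. The highest genes lie more than 3-fold above the line of equal CPM and the lowest more than 4-fold below it.

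Among the 2377 genes with at least 500 counts, the 12 highest ratios were those of OTUD1, FKBPL, SLC38A10, IER5, RBM12B, PABPC4L, GAS1, ALKBH4, SDHAF1, PTCD1, TMEM74B and FOXD3, between 2.01 and 1.71. The 12 lowest included those of RPSA, PRDX3, RABGGTB, H4C3, SNRPB, RPS28, C1QBP, RPS27, ATP6V1B2, RPL39 and EIF1, and lay between -3.27 and -2.10. They were chosen as the extremes of this ratio, so its size and interval in shCTL are a description. Some of the highest reached 500 counts mainly through the m6A-IP, such as OTUD1 with 80 input and 575 m6A-IP counts. In the shA5 pair, which the choice did not use, all 24 were past 2-fold in the same direction. To show what the writer's favoured letters look like in both sets, the GGACT nearest the stop codon is printed for 3 of the highest and 3 of the lowest genes, 5′ to 3′ in the mRNA with GGACT in capitals. Sequences and positions are from Gencode v44 on hg38, and the positions are those of the 5 capital letters.
IER5 (chr1:181089737-181089741, plus strand, coding sequence of its only exon): cagtttctcgGGACTcctacggaaa
GAS1 (chr9:86945975-86945979, minus strand, coding sequence of its only exon): actacgatgaGGACTacgatgacga
ALKBH4 (chr7:102457831-102457835, minus strand, coding sequence in exon 3): agtgcaacctGGACTactgccccga
RPSA (chr3:39411960-39411964, plus strand, coding sequence in exon 6): cagggtgaatGGACTgctcccgctc
SNRPB (chr20:2462688-2462692, minus strand, coding sequence in exon 6): cctggaagagGGACTccaatgggca
C1QBP (chr17:5433689-5433693, minus strand, coding sequence in exon 4): cccttgtgttGGACTgtcattatcc
The IER5 and GAS1 sites lie in mRNAs without a junction, that of ALKBH4 lies 149 bases from the nearest one, and those of RPSA, SNRPB and C1QBP lie 67, 54 and 22 bases away. The distance did not separate the sets, since the corresponding sites of the high genes FKBPL, SLC38A10 and PABPC4L lie 62, 77 and 45 bases from a junction and that of the low gene EIF1 lies 179 bases away. A site with these letters is a description and was not shown to be methylated.

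The highest genes were mostly genes of few exons. OTUD1 (chr10:23439075-23442377), a deubiquitinase of a single exon, had 35.8 CPM in the input and 146 CPM in the m6A-IP, and 52.6 and 156 CPM in the shA5 pair. Its log2 ratio was 2.01 (1.69 to 2.38) in shCTL and 1.56 (1.20 to 1.95) in shA5. FKBPL (chr6:32128707-32130288), an immunophilin-like protein encoded in 2 exons, had 42.9 CPM in the input and 173 CPM in the m6A-IP, a ratio of 1.998 (1.70 to 2.34). IER5, an immediate-early gene of a single exon (chr1:181088700-181092900), was the most counted of the 12. It had 420 CPM in the input and 1538 CPM in the m6A-IP, a ratio of 1.87 (1.77 to 1.98), and 1.85 (1.73 to 1.98) in shA5. GAS1, which encodes a membrane protein of Hedgehog signalling, had 164 and 574 CPM, a ratio of 1.80 (1.65 to 1.97). FOXD3, a transcription factor of neural crest and stem cells, had 43.4 and 143 CPM, a ratio of 1.71 (1.41 to 2.04). Of the 12, 5 have 1 exon and 3 have 2, and their median share of sequence over 200 bases from any junction was 94.99%, beside 58.7% for all genes. SLC38A10 and PTCD1 have more exons, 16 and 8. SLC38A10 had 112 CPM in the input and 422 CPM in the m6A-IP, and a ratio of 1.91 (1.72 to 2.11). Strand was not stated for the counting, and an exon on the other strand overlaps SLC38A10, RBM12B, ALKBH4, PTCD1, TMEM74B and FOXD3, so reads of both strands cannot be told apart there. PTCD1 also shares exon sequence with a gene on its own strand.

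The lowest genes were mostly short and finely split, with a median of 4.84 junctions per kb beside 2.39 for all genes. H4C3, with no junction, RPS28 at 2.26 per kb and EIF1 at 1.28 lay below the latter. The longest were ATP6V1B2 and EIF1, with 2856 and 2338 bases. RPSA (chr3:39406720-39412542), a protein of the small ribosomal subunit, had 260.5 CPM in the input and 26.6 CPM in the m6A-IP, 9.63-fold lower, with a log2 ratio of -3.27 (-3.60 to -2.99). In shA5 it was at -4.15 (-4.68 to -3.74). PRDX3 (chr10:119167720-119178812), a mitochondrial peroxiredoxin, had 238 and 29.9 CPM, a ratio of -2.97 (-3.29 to -2.70). RABGGTB, a subunit of the enzyme that prenylates RAB GTPases, had 180.5 and 32.7 CPM, a ratio of -2.45 (-2.76 to -2.17). H4C3 (chr6:26103933-26104337), a histone H4 gene and the only single-exon gene of the 12, had 325 and 60.9 CPM, a ratio of -2.41 (-2.63 to -2.21). RPS28 was the most counted of the 12, with 881 and 180.5 CPM, a ratio of -2.28 (-2.41 to -2.16). Their median length was 1162 bases beside 3550 for all genes, and their last exon had a median of 396.5 bases beside 1804. Their median longest internal exon was 153 bases, beside 218 for all genes and 343.5 for the 4 of the highest genes that have one. No GGACT was found in the mRNA of 7 of these 12 genes and of 2 of the 12 highest, whereas 93.2% of all kept transcripts hold one on the sense strand. Of the 12, 4 have small nucleolar or small Cajal body RNA genes inside their span, RPSA, RABGGTB and RPL39 among them. RABGGTB, SNRPB and C1QBP share exon sequence with a gene on their own strand. An exon on the other strand overlaps 3 of the 12, RPS28 and C1QBP among them, so reads of both strands cannot be told apart there. Ribosomal protein genes also have many processed pseudogenes, so their counts depend on an unstated rule for shared reads.

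With no floor of 500 counts the ends were set by sparse genes, named here after their values were seen. QRICH2 had the highest ratio of all, 2.48 (1.85 to 3.34), from 18 input and 186 m6A-IP counts. MTRNR2L6, a nuclear gene that resembles mitochondrial 16S rRNA, had the lowest, -5.62 (-7.16 to -4.94), from 278 and 8 counts. In shA5 QRICH2 was at 2.55 (1.80 to 3.55) and MTRNR2L6 at -4.90 (-6.19 to -4.18).

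Families of genes differed widely. Of 41 lists grouped by function, 39 had measured members and 37 had at least 5. The 3 highest medians were those of immediate-early genes, ZBTB, ZSCAN and ZKSCAN zinc fingers, and cadherins, and the 3 lowest were those of cytosolic ribosomal proteins, replication-dependent histones and the nuclear-encoded respiratory chain. Of the 37 lists, 13 had a median above that of all genes. Of the lists, 21 had at least 5 members among the genes with 1 protein-coding transcript, whose overall median was 0.18. There the medians were -2.05 for 7 cytosolic ribosomal proteins, -1.10 for 16 histones, -0.90 for 13 respiratory chain genes, 0.76 for 43 homeobox and related factors, 0.67 for 22 ZNF genes and 0.86 for 8 immediate-early genes. Relative to the overall median, 3 lists changed side, which were SR proteins and hnRNPs at 0.48 over 6 genes, solute carriers at -0.53 over 18 and TMEM genes at 0.64 over 21. With TMM scaling 6 lists, and with DESeq2 scaling 9 lists, changed side of 0, all with medians between -0.30 and -0.03 here.

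**Figure D2:**
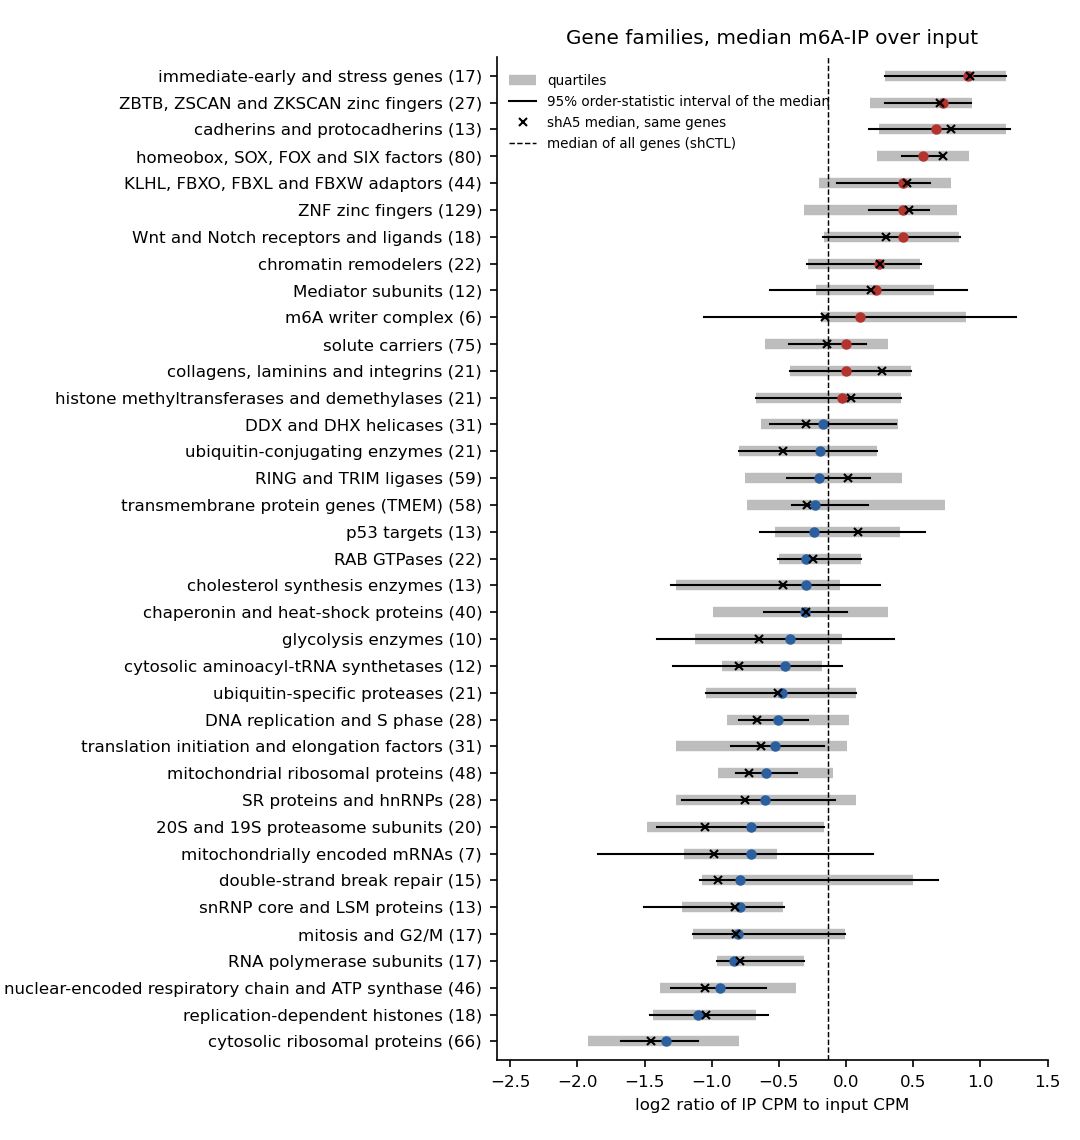
Median log2 ratio of IP to input CPM in shCTL for each list with at least 6 measured members (points, red above and blue below the median of all genes at -0.13), with quartiles (grey bars), 95% order-statistic intervals of the median (lines) and the shA5 median of the same genes (crosses). Medians run from -1.34 for cytosolic ribosomal proteins to 0.90 for immediate-early and stress genes, and the shA5 crosses lie close to the shCTL points for most lists.

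Immediate-early and stress genes encode short-lived factors that are switched on within minutes of a stimulus, and 17 of the 31 listed were measured. Their median was 0.90 (0.29 to 1.19), 8 were at least 2-fold higher in the m6A-IP and 1 at least 2-fold lower, beside 9.8% and 17.9% of all genes. IER5L, a single-exon relative of IER5, had 114 CPM in the input and 362.5 CPM in the m6A-IP, a ratio of 1.66 (1.47 to 1.86). The 3 JUN genes, which encode subunits of the AP-1 factor and have a single exon, lay together. JUN had 1383 and 3320 CPM, a ratio of 1.26 (1.21 to 1.32), JUNB was at 1.19 (1.07 to 1.31) and JUND at 1.09 (0.99 to 1.20). ATF4, the factor of the integrated stress response, was at -0.57 (-0.78 to -0.35). The lowest member was MYC, at -1.07 (-1.63 to -0.57), from 69 input and 57 m6A-IP counts. In shA5 the list's median was 0.93 with 8 genes at least 2-fold higher.

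DNA-binding transcription factors were high as classes. Of the 80 measured homeobox, SOX, FOX and related factors, which direct development, 17 were at least 2-fold higher and 3 at least 2-fold lower, beside 9.8% and 17.9% of all genes, with a median of 0.57 (0.42 to 0.71). FOXC1, a single-exon factor of mesoderm and eye development named after its values were seen, had 1065 CPM in the input and 3208 CPM in the m6A-IP, a ratio of 1.59 (1.53 to 1.66). FOXN4, with 10 exons, was the lowest of the list at -1.23 (-1.86 to -0.68). The 129 measured ZNF genes, mostly DNA-binding repressors whose finger array sits in 1 long last exon, had a median of 0.42 (0.17 to 0.62), with 23 (17.8%) at least 2-fold higher and 13 (10.1%) at least 2-fold lower. ZNF174 stood at 1.75 (1.01 to 2.76) and ZNF207, a spindle protein with 11 exons, at -2.16 (-2.47 to -1.89). The 27 ZBTB, ZSCAN and ZKSCAN genes had a median of 0.72 (0.29 to 0.93), from ZBTB12 at 1.52 (1.25 to 1.81) to ZKSCAN8 at -1.91 (-2.23 to -1.63). Enzymes and machines that act on chromatin lay closer to the middle. Chromatin remodelers had a median of 0.25 (-0.29 to 0.56) over 22 genes, and histone methyltransferases and demethylases one of -0.03 (-0.67 to 0.41) over 21, which turns positive with either scaling.

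Of the cell surface lists, cadherins were high. Cadherins and protocadherins, which join cells, had a median of 0.67 (0.17 to 1.22), and 6 of the 13 measured were at least 2-fold higher, beside 9.8% of all genes. FAT4, a giant cadherin, stood at 1.42 (1.09 to 1.78) and PCDH9 at -1.11 (-1.52 to -0.73). Wnt and Notch receptors and ligands had a median of 0.42 (-0.17 to 0.85) over 18 genes, with 3 (16.7%) at least 2-fold higher and 0 at least 2-fold lower, beside 17.9% of all genes for the latter. WNT6 was the highest at 1.38 (0.82 to 2.04) and JAG2, with 26 exons, the lowest at -0.96 (-1.51 to -0.45). KLHL and F-box adaptors, which bring substrates to ubiquitin ligases, had a median of 0.43 (-0.06 to 0.62) over 44 genes, from FBXL14 at 1.56 (1.32 to 1.83) to KLHL23 at -1.49 (-2.05 to -1.01). Solute carriers had a median of 0.0024 (-0.42 to 0.14), from SLC38A10 to SLC49A4 at -1.52 (-2.19 to -0.97). Collagens, laminins and integrins of the matrix had a median of 0.0017 (-0.42 to 0.49) over 21 genes. TMEM genes, a group named only for a membrane span, had 12 members (20.7%) at least 2-fold higher and as many at least 2-fold lower of 58, the latter near the 17.9% of all genes, from TMEM256 at -2.65 (-3.16 to -2.25) to TMEM74B at 1.72 (1.45 to 2.01). Among the ubiquitin lists, conjugating enzymes were at -0.20 (-0.80 to 0.23), RING and TRIM ligases at -0.20 (-0.44 to 0.17) and ubiquitin-specific proteases at -0.48 (-1.04 to 0.08). RAB GTPases of vesicle traffic were at -0.30 (-0.50 to 0.11) over 22 genes. Of these 5 lists, TMEM genes, conjugating enzymes and the ligases turn positive with either scaling and RAB GTPases with DESeq2 scaling.

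Genes of protein synthesis were low. Of the 66 measured cytosolic ribosomal proteins, 45 (68.2%) were at least 2-fold lower in the m6A-IP and 0 at least 2-fold higher, beside 17.9% and 9.8% of all genes, and 3 were above 0. Their median was -1.34 (-1.68 to -1.10), and -1.45 in shA5 with 49 at least 2-fold lower. FAU, a ribosomal protein made as a ubiquitin-like fusion, was the highest member at 0.38 (0.03 to 0.74). Mitochondrial ribosomal proteins, which are encoded in the nucleus and imported, were less low, with a median of -0.60 (-0.82 to -0.36) over 48 genes. Their spread was wide, from MRPL30 at -1.84 (-2.20 to -1.53) to MRPL12 at 1.46 (1.30 to 1.62). Translation factors had a median of -0.53 (-0.86 to -0.16) over 31 genes, from EEF1A1 at -2.10 (-2.44 to -1.81) to EIF3B at 0.72 (0.49 to 0.95). Proteasome subunits, which degrade ubiquitin-tagged proteins, had a median of -0.71 (-1.41 to -0.17) over 20 genes, 9 of them at least 2-fold lower. Aminoacyl-tRNA synthetases, which charge tRNAs, had a median of -0.46 (-1.29 to -0.03) over 12 genes, from NARS1 at -1.55 (-1.72 to -1.39) to KARS1 at 0.73 (0.12 to 1.42). Chaperonins and heat-shock proteins, which fold proteins, had a median of -0.30 (-0.61 to 0.01) over 40 genes, which turns positive with DESeq2 scaling. Relative to all genes it was -0.17 here and on the other side at 20 counts (0.060) and with no filter (0.039). At their low end was CCT4, a subunit of the cytosolic chaperonin, at -2.13 (-2.75 to -1.64). At their high end was the stress-inducible single-exon gene HSPA1B, with 2611 CPM in the input, 6561 CPM in the m6A-IP and a ratio of 1.33 (1.29 to 1.37), although its near-identical copy HSPA1A makes its counts uncertain.

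Genes that make and process RNA were mostly low. RNA polymerase subunits had a median of -0.83 (-0.96 to -0.31) over 17 genes, from POLR3K at -1.42 (-1.73 to -1.14) to POLR1D at 0.91 (0.68 to 1.14). The snRNP core and LSM proteins, which form the spliceosome's rings, had a median of -0.79 (-1.50 to -0.46) over 13 genes, from SNRPB at -2.37 (-2.57 to -2.19) to LSM10 at 1.03 (0.80 to 1.27). SR proteins and hnRNPs, which steer splicing, had a median of -0.60 (-1.23 to -0.08) over 28 genes, with 9 (32.1%) at least 2-fold lower and 2 (7.14%) at least 2-fold higher, beside 17.9% and 9.8% of all genes. The 6 with 1 protein-coding transcript were at 0.48, on the other side of the genes of that kind. Of all 28, SRSF1 was the lowest at -2.80 (-3.28 to -2.43), and HNRNPA1L2, an intronless copy of HNRNPA1 whose reads can be shared with it, the highest at 1.09 (0.74 to 1.49). DDX and DHX helicases lay near the middle, with a median of -0.17 (-0.57 to 0.37) over 31 genes that turns positive with either scaling. Mediator subunits, which link factors to RNA polymerase, had a median of 0.22 (-0.56 to 0.90) over 12 genes, from MED14 at -1.45 (-1.64 to -1.28) to MED26 at 0.98 (0.66 to 1.33). Their median lay 0.36 above that of all genes here and on the other side at each other count filter (-0.15 at 20 counts, -0.09 at 500 and -0.21 with no filter).

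Among genes of energy metabolism, the nuclear-encoded respiratory chain was low. The 46 measured nuclear genes of the respiratory chain and ATP synthase had a median of -0.94 (-1.30 to -0.60), with 21 (45.7%) at least 2-fold lower and 0 at least 2-fold higher, beside 17.9% and 9.8% of all genes. COX8A, a subunit of cytochrome oxidase, had 160 CPM in the input and 35.5 CPM in the m6A-IP, a ratio of -2.16 (-2.47 to -1.89), and NDUFS5 of complex I was the highest at 0.63 (0.18 to 1.11). The 7 measured mRNAs of the mitochondrial genome, which are unspliced and do not meet the nuclear writer, had a median of -0.71 (-1.85 to 0.20), with 2 at least 2-fold lower. They did not share 1 value. MT-ND4L was at -1.85 (-2.06 to -1.65), MT-CO1 at -1.53 (-1.56 to -1.50), and MT-ATP8 at 0.20 (-0.03 to 0.44), with the other 4 between -0.89 and -0.50. Glycolysis enzymes had a median of -0.42 (-1.41 to 0.36) over 10 genes, from PGK1 at -1.68 (-2.03 to -1.36) to HK2 at 0.41 (0.09 to 0.75). Cholesterol synthesis enzymes had a median of -0.30 (-1.30 to 0.25) over 13 genes, which turns positive with DESeq2 scaling, and FDPS was the highest of them at 0.95 (0.60 to 1.33).

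Genes of DNA repair and the cell cycle were mixed to low. Of the 15 measured genes of double-strand break repair, 6 were at least 2-fold lower and 0 at least 2-fold higher, beside 17.9% and 9.8% of all genes, with a median of -0.79 (-1.09 to 0.68). Among those with at least 500 counts the median lay 0.37 above that of all genes, so its side depends on the count filter. H2AX, the histone variant phosphorylated at breaks, had 526 CPM in the input and 1035 CPM in the m6A-IP, a ratio of 0.98 (0.88 to 1.07), and 0.99 (0.88 to 1.10) in shA5. RNF168, the ubiquitin ligase recruited by marked chromatin, was next at 0.92 (0.72 to 1.14). At the other end lay RAD52 at -1.49 (-2.04 to -1.02) and PRKDC, the kinase of end joining, at -1.29 (-1.47 to -1.13). PARP1, the sensor of DNA breaks, was the most counted, with 4249 and 2458 CPM and a ratio of -0.79 (-0.83 to -0.75). Mitosis and G2/M genes had a median of -0.80 (-1.14 to -0.01) over 17 genes, with WEE1, the kinase that holds cells in G2, highest at 1.06 (0.83 to 1.31) and KIF23 lowest at -1.36 (-2.002 to -0.82). DNA replication genes had a median of -0.50 (-0.80 to -0.28) over 28 genes, from RFC3 at -1.94 (-2.45 to -1.51) to the flap nuclease FEN1 at 1.23 (1.13 to 1.32). The 13 measured p53 targets ran from POLH at -1.53 (-2.12 to -1.03) to the phosphatase PPM1D at 1.51 (1.13 to 1.95), with a median of -0.24 (-0.64 to 0.59) that turns positive with either scaling.

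The m6A machinery itself was spread over the range. Of the writer complex, the adaptor RBM15B was at 1.26 (1.16 to 1.38) and WTAP at 1.12 (0.81 to 1.46), whereas METTL14 was at 0.23 (-0.04 to 0.50), the catalytic METTL3 at -0.03 (-0.14 to 0.09), ZC3H13 at -0.24 (-0.63 to 0.14) and VIRMA at -1.06 (-1.32 to -0.81). RBM15B, a single-exon gene, had 370 CPM in the input and 888 CPM in the m6A-IP. Of the readers, YTHDF1 was at 1.23 (1.11 to 1.36), IGF2BP3 at 0.15 (-0.14 to 0.45), YTHDC2 at -1.22 (-1.47 to -0.99) and IGF2BP1 at -1.55 (-1.65 to -1.45). The demethylase ALKBH5 had 217 CPM in the input and 363 CPM in the m6A-IP, a ratio of 0.74 (0.59 to 0.89). Its ratio was 0.76 (0.49 to 1.03) in shA5, where it had 111 and 187 CPM. FTO had too few counts to be kept.

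**Figure D3:**
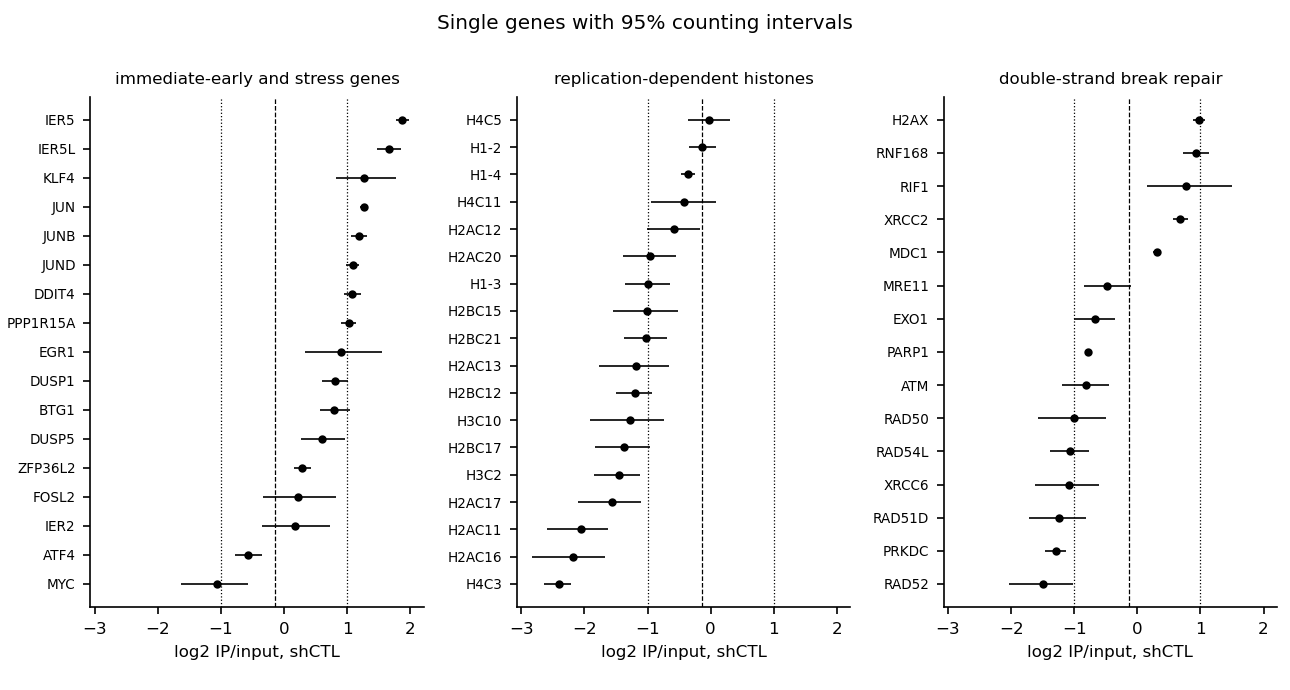
Log2 ratio of IP to input CPM in shCTL of each measured immediate-early or stress gene, replication-dependent histone gene and double-strand break repair gene, with 95% counting intervals (bars), the median of all genes (dashed) and 2-fold in each direction (dotted). Of the 17 genes at the left, 8 lie at or beyond 2-fold on the high side, whereas 11 of the 18 histone genes lie at or beyond 2-fold on the low side.

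Transcript length alone said little about the ratio. Over the 5736 genes the Spearman correlation with length was -0.0083. The medians formed a low hump, -0.58 (-0.72 to -0.36) for the 258 genes under 1 kb, -0.15 for 1 to 2 kb, -0.02 for 2 to 3 kb, -0.03 for 3 to 4 kb, -0.11 for 4 to 6 kb and -0.25 (-0.32 to -0.18) for the 1184 genes of 6 kb or more. Genes of 4 kb or more minus genes under 1.5 kb gave a difference of medians of 0.19, which was 0.45 at 500 counts or more, 0.35 with 1 protein-coding transcript and 0.0091 with no filter. The 3′ UTR showed the same shape, with -0.28 under 0.25 kb, 0.02 at 1 to 2 kb and -0.41 (-0.47 to -0.32) over 4 kb. Coding length was the exception, with medians that went from -0.40 under 0.5 kb to -0.02 at 4 kb or more. GC content moved with length, from a median of 55.5% in the shortest genes to 45.8% in the longest.

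Exon structure separated genes more than length did. The 233 single-exon genes had a median of 1.02 (0.95 to 1.10), and 51.9% of them were at least 2-fold higher in the m6A-IP, beside 9.8% of all genes. The median was 0.63 with 2 exons, 0.13 with 3 or 4, -0.25 with 5 to 9, -0.29 with 10 to 19 and -0.30 with 20 or more. Among genes with a junction it went from 0.23 (0.16 to 0.31) under 1 junction per kb to -0.54 (-0.64 to -0.46) at 6 or more. By the longest internal exon the order held only from 150 bases up. The median was -0.34 (-0.41 to -0.24) in the 829 genes under 150 bases, then -0.48 (-0.54 to -0.43) at 150 to 200 bases, -0.35 at 200 to 300, -0.07 at 300 to 500, 0.17 at 500 to 1000 and 0.42 (0.34 to 0.53) at 1000 or more. By the share of a transcript over 200 bases from any junction, a measure added after the junction values were seen, the median was -0.89 (-1.11 to -0.67) in the 70 genes with none and 0.71 (0.62 to 0.77) in the 503 genes with 90% or more. None of the 70 was at least 2-fold higher.

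The order was similar in the 1382 genes with 1 protein-coding transcript. Their medians were 1.09 (1.01 to 1.15) with 1 exon, 0.78 with 2, 0.32 with 3 or 4, -0.18 with 5 to 9 and -0.28 with 20 or more. Among those with a junction they went from 0.55 (0.44 to 0.68) under 1 junction per kb to -0.70 (-1.001 to -0.53) at 6 or more, where 0 of 68 genes were at least 2-fold higher, beside 17.7% of the 1382. Length kept its hump, from -0.53 under 1 kb to 0.41 at 2 to 3 kb and 0.0035 at 6 kb or more. GC content went from -0.49 under 40% to 0.68 at 60% or more, and the share far from junctions from -0.89 with none to 0.93 at 90% or more.

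**Figure D4:**
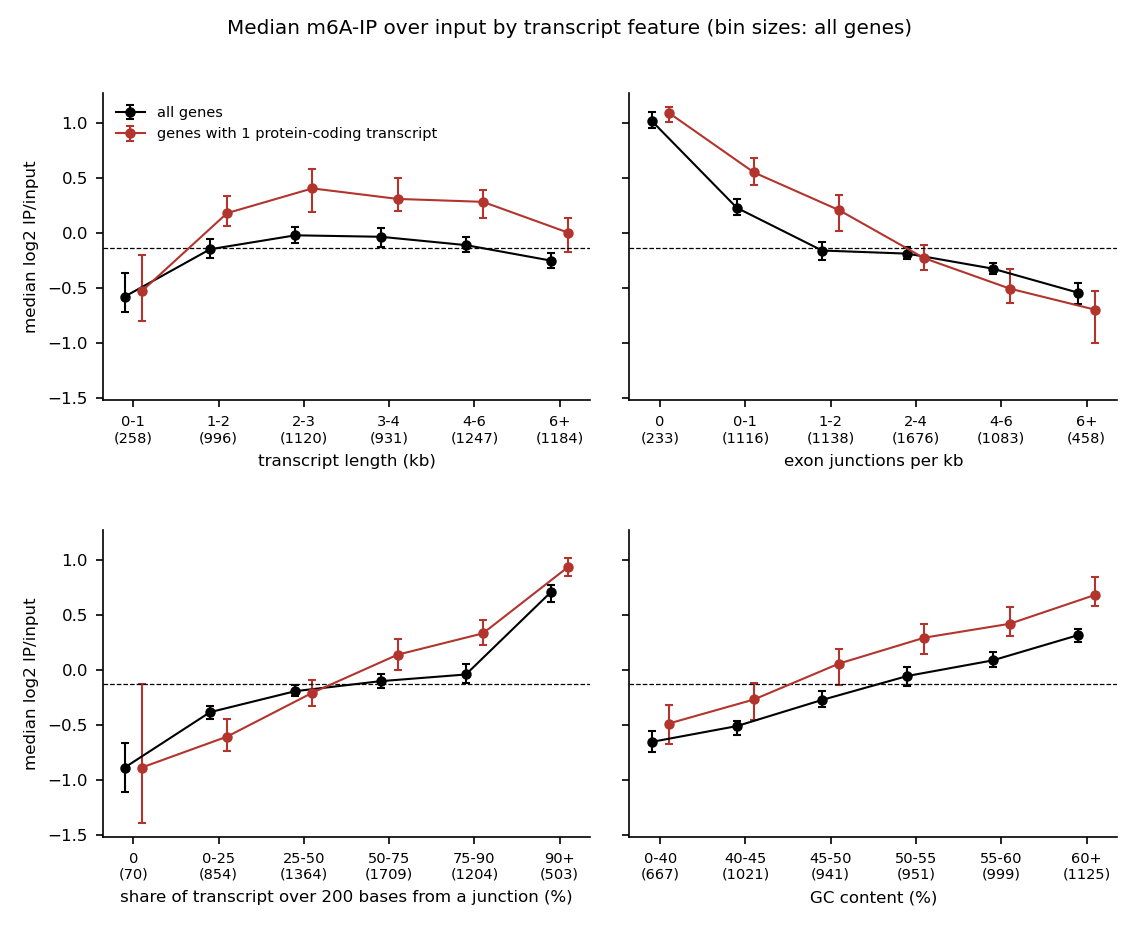
Median log2 ratio of IP to input in shCTL, with 95% order-statistic intervals, by transcript length, exon junctions per kb, share of the transcript over 200 bases from a junction and GC content, for all genes with the feature (black, numbers of genes under the axis) and for genes with 1 protein-coding transcript (red). Both sets go down with junctions per kb and up with the share far from junctions and with GC, while length gives a low hump.

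Base composition moved with the ratio too. The Spearman correlation across 5704 genes was 0.36 with GC content and -0.29 with junctions per kb. The median went from -0.66 (-0.74 to -0.56) in transcripts under 40% GC to 0.31 (0.25 to 0.37) at 60% or more. Each trend held within classes of the other. Under 45% GC the median went from -0.42 at under 2 junctions per kb to -1.10 at 6 or more, and at 55% GC or more from 0.63 to -0.36. At under 2 junctions per kb it went from -0.42 under 45% GC to 0.63 at 55% or more. The part of GC content in the pull-down or in the sequencing of fragments was not tested.

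Letters of the methylation motif said less than structure. DRACH, in which D is A, G or T, gave a Spearman correlation of -0.16 with its number per kb, and RRACH one of -0.04. DRACH density itself had a correlation of -0.51 with GC content. GGACT per kb gave 0.17, with a median of -0.44 (-0.56 to -0.34) in the 388 transcripts that have none and 0.07 (-0.03 to 0.17) in the 497 with 2 or more per kb. Where only DRACH sites over 200 bases from a junction were counted, the sign turned, with a correlation of 0.15 and medians from -0.72 (-0.90 to -0.45) in the 134 transcripts with none to 0.15 (0.03 to 0.27) at 16 or more per kb. These correlations are across genes of the same 2 libraries, and genes are not replicates.

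Histone genes and mitochondrial mRNAs stood apart from other single-exon genes. All 18 measured replication-dependent histone genes have 1 exon, yet their median was -1.10 (-1.46 to -0.58), with 11 (61.1%) at least 2-fold lower, 0 at least 2-fold higher and 0 above 0, beside 17.9% and 9.8% of all genes at 2-fold. They ran from H4C3 at -2.41 (-2.63 to -2.21) to H4C5 at -0.03 (-0.36 to 0.31). Their mRNAs normally end in a stem-loop in place of a poly(A) tail, and the libraries were made from polyA+ RNA. In shA5 the median was -1.04, again with 11 at least 2-fold lower. Without the histones, single-exon genes had medians of 0.92 (-0.71 to 1.20) under 1 kb over 15 genes, 1.04 at 1 to 2 kb, 1.12 at 2 to 3 kb, 1.20 at 3 to 4 kb and 1.01 at 4 kb or more. The class under 1 kb had a median of 0.44 in shA5 and holds MT-ATP8, MT-ATP6, MT-ND6, MT-CO2 and MT-ND4L.

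Genes with small nucleolar or small Cajal body RNA genes inside their span, on the same strand, were low. The 116 such genes had a median of -0.72 (-1.09 to -0.45), beside -0.13 in the 5588 others. They also had more junctions, with a median of 4.00 per kb beside 2.37, and less GC, 46.7% beside 51.3%. The part of these features in the difference was not tested. Of them 50 (43.1%) were at least 2-fold lower, beside 17.4% of the others and 17.9% of all genes. The 14 with 1 protein-coding transcript were at -0.63, beside 0.19 in the 1368 others of that kind. Without cytosolic ribosomal proteins the 91 remaining had a median of -0.45 (-0.71 to -0.23). The level of a gene in the shA5 input, which the shCTL ratio does not use, gave medians from 0.03 (-0.03 to 0.09) in the 1147 genes with the lowest CPM per kb to -0.22 (-0.28 to -0.16) in the 1148 with the highest. This difference of -0.25 depended on the count filter, with -0.038 at 20 counts, -0.71 at 500 and -0.070 with no filter. It was -0.46 with 1 protein-coding transcript. The filter sums input and m6A-IP counts, so a gene of low input passes it more readily where its m6A-IP count is high. The part of this in the difference was not tested.

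Isoforms of the same gene often differed. In 241 genes 2 transcripts of different length each had at least 100 counts. The longer minus the shorter gave a median of -0.18 (-0.38 to 0.05), and the longer was higher in 109 genes and lower in 132. The counting intervals of the 2 transcripts did not overlap in 54 genes in which the longer was higher and in 74 in which the shorter was. Where the longer was at least 1.5 times as long, the median was -0.39 (-0.68 to 0.03) over 100 genes, with 20 and 36 such genes, and where it had the longer 3′ UTR it was -0.31 (-0.58 to 0.03) over 152, with 31 and 52. For 121 of the 128 genes with separate intervals the sign was the same in shA5. The largest differences are named after their values were seen. AGAP1 had 1.60 (1.16 to 2.12) in its transcript of 6138 bases and -1.45 (-1.88 to -1.07) in that of 10889 bases, SRSF11 had 0.74 (0.32 to 1.20) and -2.18 (-2.63 to -1.80), and PHPT1 had -1.90 (-2.59 to -1.36) in the shorter and 1.09 (0.56 to 1.71) in the longer. Since the handling of reads shared by isoforms is not stated, these values may rest on the stretch that is particular to each transcript.

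The second pair of libraries gave nearly the same picture. Across the 5736 genes the shCTL and shA5 ratios had a Pearson correlation of 0.915 and a Spearman correlation of 0.919, and 83.3% of genes differed by 0.5 or less on the log2 scale. In shA5, 661 genes (11.5%) were at least 2-fold higher and 1103 (19.2%) at least 2-fold lower. The 419 genes higher in both are 74.6% of the shCTL list and 63.4% of the shA5 list, the 822 lower in both are 80.0% and 74.5%, and 0 genes were past 2-fold in opposite directions. With TMM scaling of the shCTL ratio alone 577 were higher and 551 lower in both, and with DESeq2 scaling of it 586 and 516. The shA5 ratio kept its library totals in these counts, so the overlap with both pairs rescaled is not given. The balance of the directions moved with the scaling of shCTL. The shA5 cells were another population with less ALKBH5 RNA, so this is a repeat of the pattern across genes and not a replicate of shCTL.

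**Figure D5:**
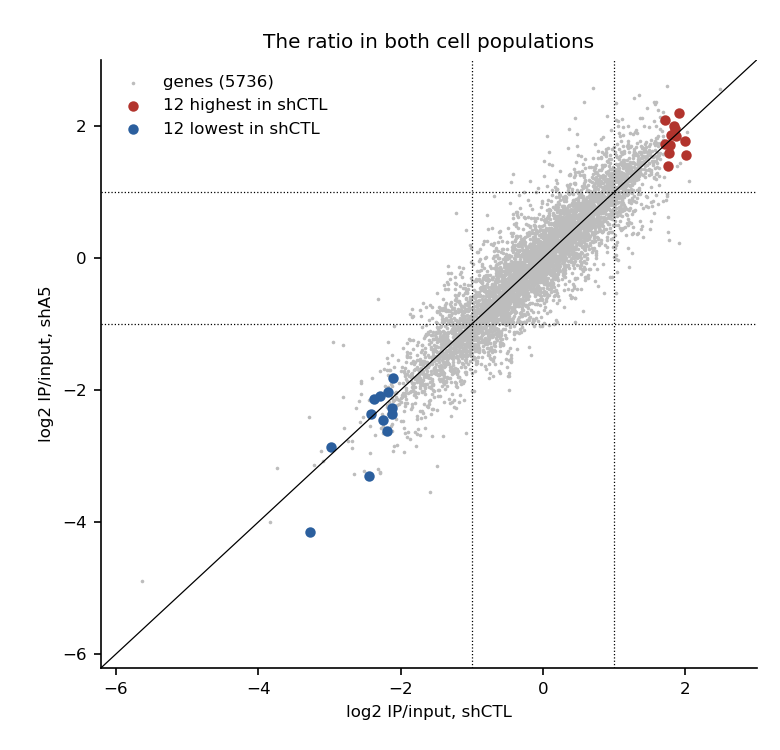
Log2 ratio of IP to input CPM of each of the 5736 genes in shCTL (horizontal) and shA5 (vertical), with the line of equal values, 2-fold in each direction (dotted) and the 12 highest and 12 lowest shCTL genes in colour. All 24 coloured genes lie past 2-fold in both pairs, and no gene lies past 2-fold in opposite directions.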

How the data were processed

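Polyadenylated RNA of X-ray-treated HEK293T cells was fragmented, and input and m6A-IP libraries were sequenced. According to the methods and the submitters' processing notes, the authors used bcl2fastq 2.0, fastp 0.23.2, HISAT2 (hg38), SAMtools 1.9 and StringTie. The authors deposited raw counts, as whole numbers for each Ensembl transcript, neither normalized nor pooled. StringTie is named for quantification, but whether the deposited whole-number counts came from it is unclear. The annotation release and the handling of strand and of shared reads are not given in the sources used here. Groups were taken from the sample titles, with 1 library each.

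Counts were summed per gene symbol, scaled by library total and filtered at 100 counts over the shCTL pair, and 0.5 CPM was added before log2 ratios were taken. Length was the count-weighted mean of the deposited lengths, in which 3 had become dates and were read from another file. Of the listed transcripts, 98.2% matched Gencode v44, and features of the most counted transcript were available for 5704 of 5736 genes. RRACH, DRACH and GGACT were searched on the sense strand with overlaps allowed. Named genes are the 12 highest and 12 lowest with at least 500 counts and the highest and lowest member of each list described. Further members of the m6A machinery and of the stress, repair, mitochondrial and histone lists were named with their values known. The members and lists were chosen with earlier results of these data known, and patterns for ribosomal, translation, respiratory and RAB genes were tightened after the files were seen, to remove names outside the family. The lists of snoRNA host genes (SNHG) and of nuclear long non-coding RNAs had 0 listed members, and 2 gene names that had become dates were not named.

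The ratio and its interval were run on simulated Poisson counts with known library totals. This checks the code only, since an exact interval covers such counts by construction. Analyses used Python 3.11.15, numpy 2.4.6, scipy 1.17.1, pandas 2.3.3, matplotlib 3.10.9, and edgeR 4.0.16 and DESeq2 1.42.0 in R 4.3.3 for scaling factors only. Alternatives covered scaling, count filter, pseudocount, thinning, transcript choice, fold threshold and length. Peaks were not analysed here, and some genes that the rule would name are not reported here.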

Additional observations from a re-analysis of the deposited data

Results flagged for a closer look

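Of the 37 lists with at least 5 measured genes, 4 had medians on opposite sides of the median of all genes in the 2 cell populations, and this difference was not tested. The m6A writer complex was 0.234 above it in shCTL and 0.03 below in shA5 (-0.03), over 6 genes. Solute carriers were 0.137 above it in shCTL and at -0.01 in shA5, over 75 genes. RING and TRIM ligases stood at -0.066 in shCTL and 0.14 in shA5, over 59 genes, and p53 targets at -0.103 and 0.22, over 13 genes. Each shCTL difference is smaller than the half-width of that list's interval, which was 1.16, 0.28, 0.31 and 0.61.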

How the results depend on the processing

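No paired analysis was possible because a group is a single library here, and for the same reason no replicate could be left out. The numbers of genes at least 2-fold higher and lower, 562 and 1027, were 999 and 616 with TMM, 1081 and 567 with DESeq2 factors, 857 and 2138 at 20 counts or more, 308 and 250 at 500 or more, 1555 and 3279 with no filter, 1249 and 1800 at 1.5-fold, 220 and 543 for whole intervals, and 244 and 178 among genes with 1 protein-coding transcript, the last chosen after seeing the data. The median of -0.13 changed sign with TMM (0.15), DESeq2 (0.19), at 500 counts (0.13) and with 1 transcript (0.18), and was -0.25 at 20 counts, -0.28 with no filter and -0.10 on the most counted transcript. Genes higher in both pairs were 269 at 500 counts, 690 with no filter and 195 with 1 transcript. Genes lower in both were 1550 at 20 counts, 221 at 500, 1997 with no filter and 154 with 1 transcript. With only the shCTL ratio rescaled and shA5 left on library totals, genes higher in both were 577 with TMM and 586 with DESeq2. Genes lower in both were then 551 and 516. The length contrast of 0.19 was 0.45 at 500 counts, 0.01 (0.0091) with no filter and 0.35 with 1 transcript. The difference of 1.31 between 1 and at least 10 exons was 1.04 with no filter. The difference between the genes of highest and lowest input level, -0.25, was -0.038 at 20 counts, -0.71 at 500, -0.070 with no filter and -0.46 with 1 transcript. The isoform difference of -0.18 was -0.42 at 500 counts, -0.07 at 20 and -0.03 with no filter. Fewer or more genes enter at other filters, and the cause of the remaining shifts was not tested. List medians relative to all genes moved by more than the half-width of their interval in 13 of 348 recomputations and changed sign in 20, for 11 lists. Of these, 6 were at 20 counts, 4 at 500, 6 with no filter, 1 on the most counted transcript and 3 with 1 transcript. The isoform difference has no value for thinned libraries, the most counted transcript or genes with 1 transcript. Below 120 counts the interval of a single gene had a median width of 1.19 on the log2 scale, so the order of sparse genes within a list is uncertain.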
